A study of Mus musculus with 25 samples.

Results

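The interferon response genes were followed through 5 murine melanoma lines: 57 genes, given as a list of symbols that holds interferon receptors, the signalling proteins behind them and genes that interferon induces. All 57 symbols were matched to the versioned Ensembl identifiers of the count files, among 55385 genes in all. RNA was taken from untreated cultures at a confluency of 50%, with 5 libraries from each line, so that 25 libraries were compared. WT31 (from Tyr::NrasQ61K/°; INK4a−/− mice), B16F10 luc2 (a purchased line with a luciferase gene) and RET (from MT/RET transgenic mice) were grouped as HIM-melanoma, for lines with a high or intermediate capacity for hepatic metastasis. D4M (mouse genotype Tyr::CreER;BrafCA;Ptenlox/lox) and HCmel12 (from a primary melanoma of an HGF-CDK4(R24C) mouse) were grouped as LM-melanoma, for lines with a low capacity. Each group therefore holds only 3 or 2 lines, and the 5 libraries of a line are labelled biological replicates without naming separate animals, so that p-values measure the spread between these libraries. RET, WT31 and B16F10 luc2 were kept in RPMI with fetal calf serum, HCmel12 in RPMI with further additives and D4M in Advanced DMEM/F-12. For D4M and HCmel12, medium and line cannot be told apart.

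Interferons are secreted proteins, and cells release those of type I when they sense foreign or misplaced nucleic acid. Type I interferons bind the receptor chains Ifnar1 and Ifnar2, and interferon gamma binds Ifngr1 and Ifngr2. Janus kinases such as Jak1 then phosphorylate STAT proteins, and a complex that contains Stat2 and Irf9 binds a DNA element, the interferon-stimulated response element (ISRE), in front of induced genes. The induced genes encode sensors of viral RNA and DNA, enzymes that degrade or edit nucleic acid, GTPases, ubiquitin-like modifiers and membrane proteins that hinder viruses. Many tumour lines keep a part of this programme switched on without added interferon, and others have lost parts of it.

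The libraries held between 24199083 and 25843286 counts. Of 55385 genes, 15247 passed the filter on low counts and were tested, among them 56 of the 57 members. Ifitm1, a membrane protein, was not tested: it had at most 1 count in any D4M library and 0 counts in all others. All values in CPM (counts scaled to the library total) are scaled with TMM factors. Apart from the sums of marker genes below, levels of different genes are compared only in TPM (the deposited abundance per transcript length). The marker sums are in CPM and are not corrected for transcript length. Of 10 genes of the melanocyte lineage, the summed level lay between 12500 and 31500 CPM in the libraries of WT31, B16F10 luc2, RET and HCmel12, and between 26.6 and 83.2 CPM in D4M. Ednrb, 1 of the 10, had at most 3 counts in every D4M library. Its mean was also only 0.0958 CPM in B16F10 luc2, 0.0383 in RET and 0.187 in HCmel12, against 974 in WT31, so that it does not set D4M apart. The label melanoma was thus not borne out by these markers in D4M, which is called by its line name. Between 6 and 7 of 8 leukocyte markers, Ptprc among them in every line, had at most 3 counts in every library of a line, with summed levels from 0.089 to 11.8 CPM. The highest sums were mainly Lyz2 in WT31, with a mean of 8.13 CPM and up to 304 counts, against at most 1.72 CPM on average elsewhere. Of the other marker lists, 5 fibroblast genes summed to between 157 and 267 CPM in D4M and to between 0.956 and 82.9 CPM elsewhere. The D4M sum was mainly Col1a1 (mean 144 CPM) and Pdgfra (59.5 CPM), with Dcn, Lum and Thy1 at means of at most 0.547 CPM. The 4 endothelial genes summed to between 25.4 and 39 CPM in HCmel12 and to at most 2.03 CPM elsewhere, but this was almost wholly Kdr (mean 30.9 CPM): in HCmel12 Cdh5 and Emcn had 0 counts, and the mean of Pecam1 was 0.108 CPM. The part of these markers in the results was not tested.

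The start regions of the members were searched for motifs of the pathway. For 45 of the 57 members RefSeq (GRCm38.p6) gave a region from 250 bases before to 50 bases after the start. The ISRE letters GAAANNGAAA, or TTTCNNTTTC on the other strand, were present in 21 of the 45 (46.7%) and in 1079 of 27025 genes with such a region (3.99%). The letters TTCNNNGAA, the core of the GAS element of STAT dimers, which read alike on both strands, were present in 13 of the 45 (28.9%) and in 2582 genes (9.55%). Neither motif was required to be free of the other. The windows below show the matches in capitals, 5′ to 3′ on the strand of the gene, for members whose values are given in the following paragraphs: Stat2 and Bst2, which were lower in all 3 HIM lines, Isg15, Ifit1, Ifit3 and Oas1a as members with repeated or double elements, Irgm1 and Gbp2 as members whose order of lines differed from the commonest one, and Trim30a as a member with at most 3 counts in every library of 3 lines.
Stat2: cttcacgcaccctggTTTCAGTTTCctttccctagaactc
Bst2: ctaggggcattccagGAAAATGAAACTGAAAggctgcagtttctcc
Isg15: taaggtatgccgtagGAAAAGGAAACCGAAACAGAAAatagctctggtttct
Ifit1: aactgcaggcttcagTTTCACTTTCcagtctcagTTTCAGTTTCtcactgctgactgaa
Ifit3: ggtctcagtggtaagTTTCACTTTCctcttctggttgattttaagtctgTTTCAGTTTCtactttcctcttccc
Oas1a: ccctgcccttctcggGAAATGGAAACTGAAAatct
Irgm1: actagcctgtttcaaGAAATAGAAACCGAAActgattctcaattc
Gbp2: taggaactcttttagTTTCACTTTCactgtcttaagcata
Trim30a: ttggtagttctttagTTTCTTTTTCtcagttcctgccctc
The windows lie at chr10:128270261-128270300 on the plus strand for Stat2, chr8:71537572-71537617 on the minus strand for Bst2, chr4:156200860-156200911 on the minus strand for Isg15 and chr19:34640770-34640828 on the plus strand for Ifit1. Those of the other genes lie at chr19:34583358-34583431 (plus, Ifit3), chr5:120907526-120907560 (minus, Oas1a), chr11:48871421-48871465 (minus, Irgm1), chr3:142620589-142620628 (plus, Gbp2) and chr7:104465205-104465244 (minus, Trim30a). The window of Ifit3b at chr19:34607754-34607827 held the same letters as that of Ifit3. In Isg15, 3 overlapping matches began 78, 72 and 66 bases before the start, and in Stat2 the single match began 222 bases before it. Members without the ISRE letters had medians of the same sign as those with them. Over the 23 tested members without a match, the median log2 fold change was -1.19 in RET against D4M and 1.28 in D4M against HCmel12. Over the 21 with a match it was -1.4 and 2.04. The medians lay further apart in WT31 against D4M, at -1.82 without and -4.33 with a match. In WT31 against RET they were -0.68 and -2.34. Over the 12 members without such a region, the medians of these comparisons were -3.16, 4.44, -6.85 and -3.57, in the same order. A match describes the letters only, and no binding was measured.

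Within their own lines, 5 libraries stood apart for the members. D4M replicate 4 had the highest level of its line for 47 of 56 members, against 17.5% of the other tested genes, and D4M replicate 2 had the lowest for 32 (23.8% of the other genes). HCmel12 replicate 4 was highest for 42 members (32.7% of the other genes) and HCmel12 replicate 3 lowest for 33 (25.3%). RET replicate 3 was lowest for 38 (25.8%). The median deviation from the mean of the other libraries of the line, on the log2 scale, was 0.6 in D4M replicate 4, -0.41 in D4M replicate 2, 0.76 in HCmel12 replicate 4, -0.45 in HCmel12 replicate 3 and -0.44 in RET replicate 3. The scaling holds the median of the other genes near 0 (between -0.02 and 0.02 in all 25 libraries), which does not show that other genes were alike. HCmel12 replicate 4 stood apart over all genes too: it was also the lowest library of its line for 34.2% of the other genes, and the chi-square per gene between its counts and those of a library of the same line was 47.9 to 78.2, against 12.9 to 22 among the others. WT31 replicate 5 likewise had 27.9 to 67.4, against 12.3 to 23.6 among the other WT31 libraries, while its median deviation over the members was -0.07. Whether the deviations are particular to the members was not tested. An alternative chosen after seeing the data left out HCmel12 replicate 4, D4M replicate 4 and RET replicate 3 together. It kept the low libraries D4M replicate 2 and HCmel12 replicate 3. For most members it thus lowers D4M and HCmel12 and raises RET, so that moves between these lines follow in part from the choice. With this alternative the counts given below moved as follows. WT31 was below each other line for 19 members in place of 16 and lower than B16F10 luc2 for 21 in place of 18. RET was higher than HCmel12 for 27 in place of 25 and lower for 7 in place of 9. Each of the other counts of members higher or lower in a comparison moved by at most 2.

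**Figure D1:**
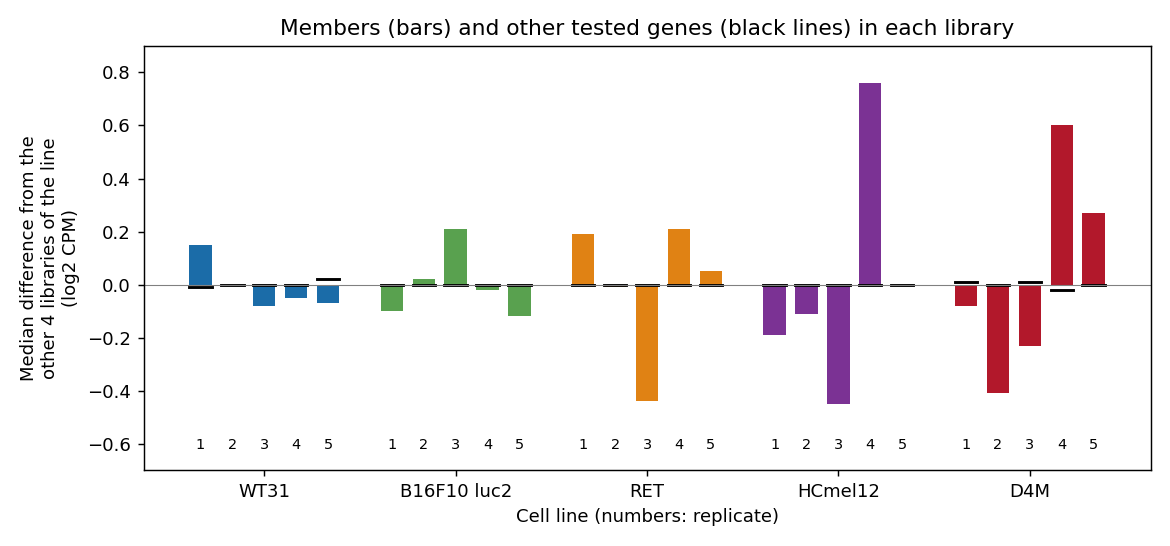
Median log2 deviation of each of the 25 libraries from the other libraries of its line, over the 56 tested members (bars) and over all other tested genes (black lines). HCmel12 replicate 4 (0.76) and D4M replicate 4 (0.6) were highest. The scaling holds the median of the other genes near 0, between -0.02 and 0.02.

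Most members were highest in D4M and lowest in WT31 or B16F10 luc2. D4M had the highest mean log2 level for 46 of 56 members, RET for 5 (Ifngr2, Herc6, Mx1, Mx2, Rsad2), HCmel12 for 2 (Irf1, Gbp2), WT31 for 2 (Ifnar2, Samhd1) and B16F10 luc2 for 1 (Ifit2). WT31 had the lowest mean for 30 members, B16F10 luc2 for 21, RET for 3, and D4M and HCmel12 for 1 each. The highest and lowest lines were not counted over all tested genes, so that these counts have no background. In bulk RNA, fewer expressing cells and less RNA per cell cannot be told apart for any of these levels. In 42 members D4M was above each of the 4 other lines with an adjusted p under 0.05, against 20% of all tested genes. WT31 was below each other line for 16 members (11.1% of all tested genes), and B16F10 luc2 for 11 (6.83% of all tested genes). At most 3 counts in every library were found for 13 of the 57 members in WT31, 6 in B16F10 luc2, 4 in HCmel12, 3 in RET and 1 in D4M. For other genes this was not counted either. Zbp1, Oas2, Oas3, Iigp1 and Ifi44 passed the filter (0.404 CPM in 5 libraries) only because of D4M, so that they had to differ there. All 5 are among the 42 and among every count of members in which D4M was the higher line in the next 2 paragraphs, and they give no support to any of these counts.

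**Figure D2:**
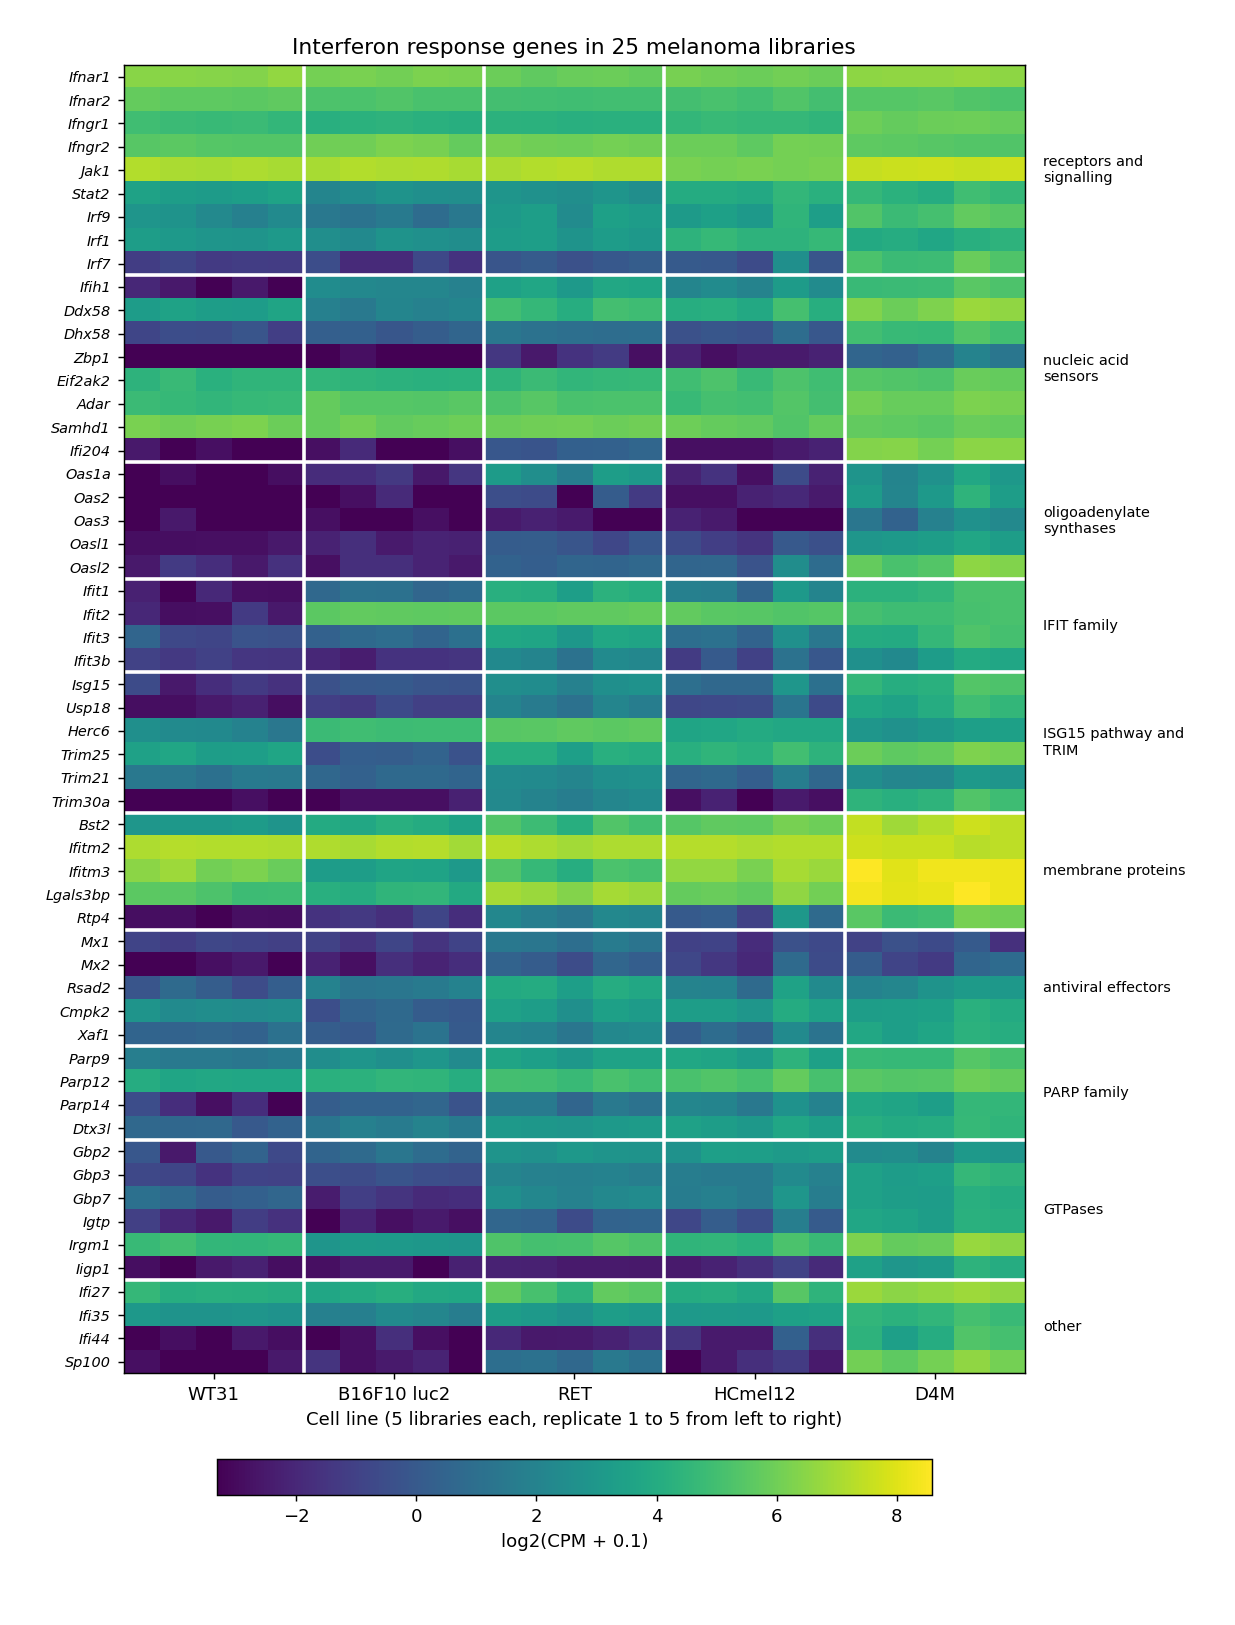
Level of the 56 tested members (rows, in groups by role) in the 25 libraries (columns, 5 per line) as log2(CPM + 0.1). D4M has the highest mean log2 level for 46 of the 56, and 12 of the 56 have at most 3 counts in every library of WT31. Neither was counted over all tested genes.

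The 10 comparisons between lines differed widely in how many members they moved. WT31 was lower than D4M for 51 members (38.6% of all tested genes) and higher for 2 (37.5% of all tested genes), and the median log2 fold change was -3.43 with a median of -0.01 over all genes. B16F10 luc2 was lower than D4M for 51 members (38.9% of all genes) and higher for 3 (38.8%), with a median of -3.71. RET was lower than D4M for 46 (38.3%) and higher for 6 (38.8%), with a median of -1.52. Every line of HIM-melanoma thus fell below D4M for most members, and RET lay nearest to it. Against HCmel12 the 3 lines had different counts. WT31 was lower for 35 members (34.3% of all genes) and higher for 6 (36.1%), with a median of -1.44. B16F10 luc2 was lower for 29 (33.8%) and higher for 5 (35.3%), with a median of -1.18. The count of 5 was 3 with DESeq2's size factors, with scaling by library size alone, with no filter, with at least 10 counts in every library, with DESeq2's Wald test and in fits of 2 lines only. It was also 3 without any 1 of 10 single libraries, namely replicates 2, 4 and 5 of B16F10 luc2, replicate 5 of RET, replicates 1, 2 and 5 of D4M and replicates 2, 3 and 5 of HCmel12. RET was higher than HCmel12 for 25 members (34.0% of all genes) and lower for 9 (33.3%), with a median of 0.29. With at least 10 counts in every library, which left 29 members to test, 11 were higher and 10 lower, so that this lean was not seen.

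Inside the groups, RET was also the higher line. WT31 was lower than RET for 41 members (36.4% of all genes) and higher for 5 (36.8%), and B16F10 luc2 was lower than RET for 40 (26.2%) and higher for 3 (25.2%). The medians were -1.81 and -1.74. WT31 and B16F10 luc2 did not show one direction: WT31 was higher for 17 members and lower for 18 (36.4% of all genes in either direction). With at least 10 counts in every library, 15 were higher and 8 lower. The median of -0.28 there became 0.21 once members at the floor of 3 counts were set to their bound or left out. For Ifi204, Oas2, Ifi44 and Sp100 the B16F10 luc2 mean (0.0488, 0.0413, 0.0578 and 0.0997 CPM) was itself under the floor of 0.116 CPM. Their bounds thus entered as higher in WT31, so that the sign of 0.21 cannot be read. D4M was higher than HCmel12 for 46 members (36.8%) and lower for 5 (35.7%), with a median of 1.81, so that LM-melanoma did not form one level either. With members at the floor set to their bounds, the medians against D4M were -3.36 (WT31), -3.72 (B16F10 luc2) and -1.52 (RET). Against HCmel12 they were -0.96, -1.05 and 0.26, in the same order. In WT31 against HCmel12 the bounds of Ifi204 and Oas2 likewise entered as higher in WT31. The comparisons with D4M share its libraries, and so do those with HCmel12. With scaling by library size alone, the median of all genes was 0.22, 0.15 and 0.21 for WT31, B16F10 luc2 and RET against D4M. For D4M against HCmel12 it was -0.17. The medians of the members then were -3.2, -3.55, -1.32 and 1.64.

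**Figure D3:**
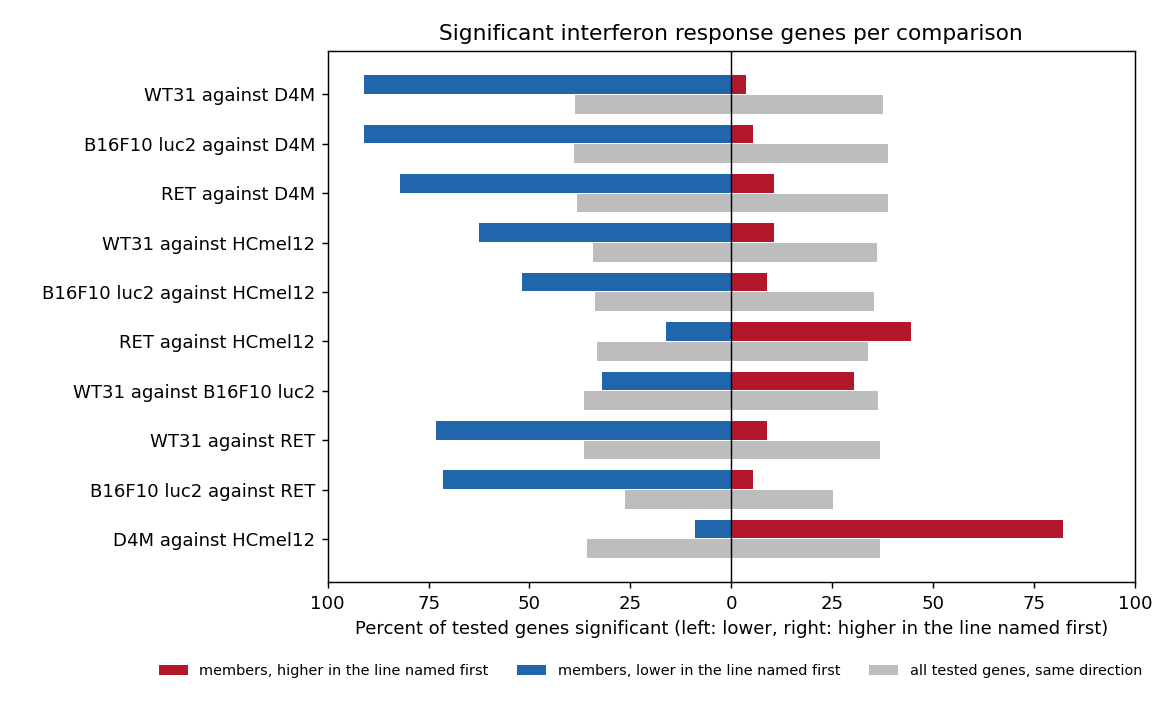
Percentage of the 56 tested members (coloured bars) that were higher or lower in the first line of each of the 10 comparisons at an adjusted p under 0.05, beside the percentage of all 15247 tested genes. The members lie far to the lower side for WT31 and B16F10 luc2 against D4M (51 of 56 each) and more were higher than lower for RET against HCmel12 (25 and 9).

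Commonly regulated members, those called in the same direction in each of the 6 HIM-against-LM comparisons, were sought next. No member was commonly higher (6.53% of all tested genes were), and at an unadjusted p under 0.05 the number was also 0 with limma, with edgeR's quasi-likelihood test and with DESeq2. Commonly lower were 6 members, against 6.40% of all tested genes: Stat2, Irf1, Eif2ak2, Trim25, Bst2 and Parp12. None of the 6 kept all 6 calls when the log2 fold change also had to be 1 or more in size.

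Stat2 (chr10:128270559-128292849, plus strand, GENCODE vM21 on GRCm38) is the STAT protein of the type I interferon complex. Its level was 24.4, 19.6, 16.4, 30.3 and 24.1 CPM in D4M and 15.8, 16.1, 14.5, 23.4 and 18.7 CPM in HCmel12. WT31 had 11.4, 9.64, 9.07, 10.0 and 11.8 CPM, B16F10 luc2 4.16, 5.43, 6.83, 5.98 and 5.76 CPM and RET 7.19, 6.34, 5.83, 7.4 and 5.79 CPM. Every LM library lay above every HIM library. The log2 fold changes ran from -2.01 for B16F10 luc2 against D4M to -0.75 (SE 0.15, adjusted p = 6.8e-05) for WT31 against HCmel12. RET and B16F10 luc2 did not pass the test between themselves, at a log2 fold change of -0.22 (SE 0.2, adjusted p = 0.39) for B16F10 luc2 against RET.

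Irf1 (chr11:53770014-53778374, plus strand) is a transcription factor that interferon gamma induces through the GAS element. It was at 14.7, 16.5, 12.9, 17.9 and 20.9 CPM in D4M and at 20.9, 24.9, 20.7, 20.4 and 25.1 CPM in HCmel12, the line with the highest mean. The HIM lines had 9.63, 8.61, 7.33, 7.15 and 8.27 CPM (WT31), 5.83, 4.85, 6.88, 6.23 and 5.61 CPM (B16F10 luc2) and 9.48, 10.0, 6.89, 9.48 and 7.95 CPM (RET). Here too no HIM library reached the lowest LM library. HCmel12 was above D4M, with a log2 fold change of D4M against HCmel12 of -0.44 (SE 0.11, adjusted p = 6e-04). WT31 against RET gave -0.09 (SE 0.14, adjusted p = 0.57).

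Eif2ak2 (chr17:78852564-78882573, minus strand) encodes PKR, a kinase that senses double-stranded RNA and stops translation. D4M had 43.4, 40.8, 38.4, 58.4 and 54 CPM, HCmel12 30.5, 38.2, 26.5, 38.3 and 30.8 CPM and RET 21.5, 27.7, 22.4, 24.2 and 24.8 CPM. The HIM lines lay close together, with a mean of 24.1 ± 2.41 CPM (SD, n = 5) in RET, 22 ± 2.83 in WT31 and 20.4 ± 1.68 in B16F10 luc2. HCmel12 and RET overlapped in single libraries. The smallest of the 6 differences was RET against HCmel12 at -0.43 (SE 0.12, adjusted p = 0.0022), and the largest was B16F10 luc2 against D4M at -1.19 (SE 0.12, adjusted p = 1.1e-09).

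Trim25 (chr11:88999376-89020293, plus strand), a ubiquitin ligase that acts on the RNA sensor encoded by Ddx58, differed most among the 6. B16F10 luc2 had only 0.595, 1.08, 1.03, 1.28 and 0.692 CPM, whereas WT31 had 11, 13, 9.73, 9.96 and 12.6 CPM and RET 16.8, 17, 10.6, 18.4 and 16.4 CPM. D4M had 59.7, 49.2, 55.1, 78.6 and 68.4 CPM and HCmel12 18.4, 22.3, 18.6, 31.3 and 20.9 CPM. In the order D4M, HCmel12, RET, WT31, B16F10 luc2 each pair of neighbours passed the test, but WT31 against RET, at -0.47 (SE 0.18, adjusted p = 0.019), became -0.26 with an adjusted p of 0.074 in log2(TPM + 1), in a range from 7.3e-05 to 0.074 over the alternatives. B16F10 luc2 against WT31 was the widest step, with a log2 fold change of WT31 against B16F10 luc2 of 3.61 (SE 0.36, adjusted p = 1.5e-09). RET against HCmel12 was -0.49 (SE 0.16, adjusted p = 0.0084) and became -0.22 with an adjusted p of 0.088 without the 3 libraries named above, in a range from 0.0022 to 0.088 over the alternatives.

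Bst2 (chr8:71534255-71537456, minus strand), also named tetherin, holds budding virus particles at the membrane. Its level was 178, 119, 147, 205 and 169 CPM in D4M, 43.8, 51.5, 48.8, 70.3 and 62.2 CPM in HCmel12 and 40.2, 28.4, 17.3, 41.2 and 31 CPM in RET. In WT31 it was 7.62, 8.12, 7.95, 9.15 and 7.09 CPM and in B16F10 luc2 15.3, 13.9, 18.3, 15.8 and 11.5 CPM. Each of D4M and HCmel12 stood wholly above the HIM lines, and each line passed the test against its neighbour in the order, although the lowest RET library lay below the highest of B16F10 luc2. WT31 against D4M was -4.33 (SE 0.23, adjusted p = 4.4e-15), and RET against HCmel12, the smallest of the 6, was -0.85 (SE 0.18, adjusted p = 0.00014).

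Parp12 (chr6:39086410-39118349, minus strand), an ADP-ribosyltransferase, had the smallest single difference of the 6. It was at 16.7, 12.7, 13.9, 12.9 and 13.3 CPM in WT31, 19, 20.2, 22.4, 22.1 and 16.9 CPM in B16F10 luc2 and 32.2, 31, 26.9, 35.4 and 30.9 CPM in RET. HCmel12 had 36, 40.6, 34.8, 54 and 35 CPM and D4M 46, 41.4, 43.7, 61.6 and 54.6 CPM. RET and HCmel12 overlapped, the lowest HCmel12 library being below the highest of RET. The log2 fold change of RET against HCmel12 was -0.34 (SE 0.12, adjusted p = 0.011) and became -0.23 with an adjusted p of 0.054 without HCmel12 replicate 4, in a range from 0.0042 to 0.091 over the alternatives. D4M against HCmel12 was 0.31 (SE 0.11, adjusted p = 0.015) and lost its call without D4M replicate 4 (0.23), without HCmel12 replicate 3 (0.26) and without HCmel12 replicate 5 (0.26), with an adjusted p from 0.00049 to 0.29 over the alternatives. With the 3 libraries left out together, Parp12 and Trim25 lost a call and 4 members were commonly lower. Without HCmel12 replicate 4 alone the number was 5, and without HCmel12 replicate 3 it was 9.

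**Figure D4:**
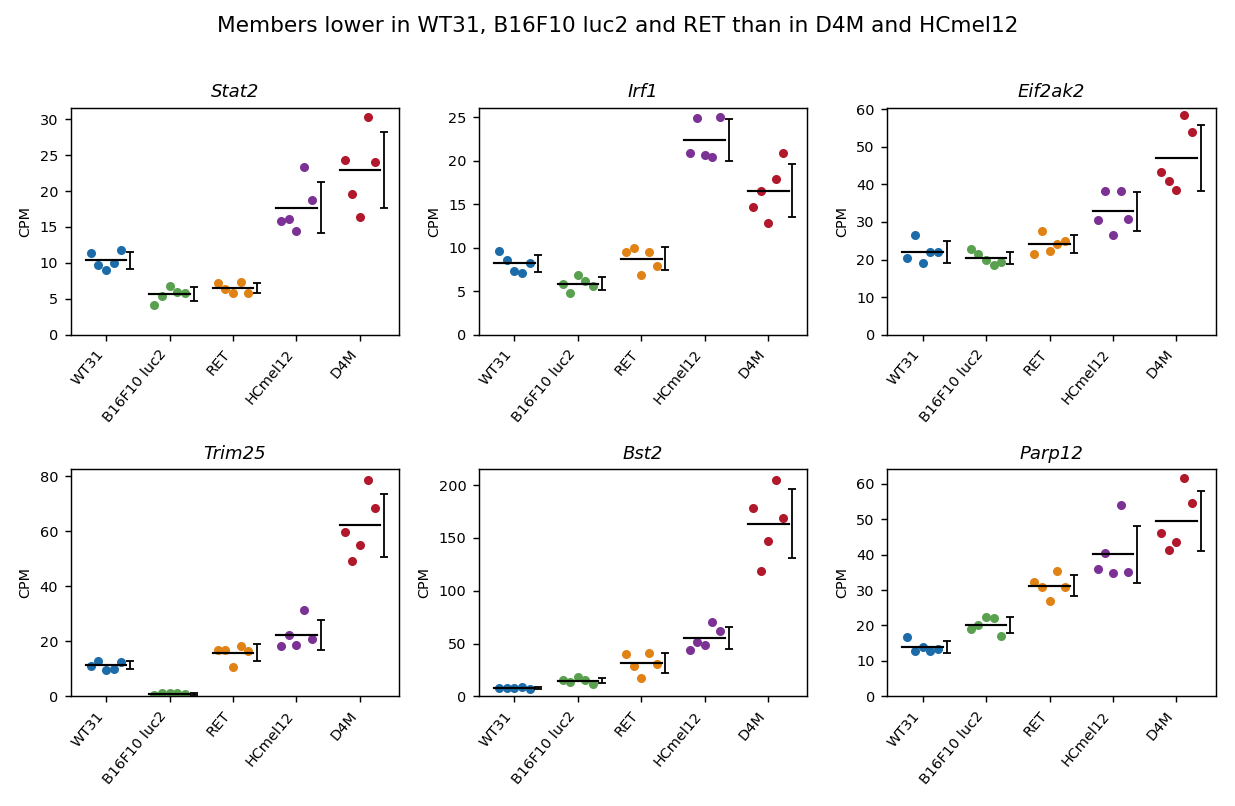
Level in CPM of the 6 commonly lower members in each library (points), with the mean (line) and SD (bar) of the 5 libraries of each line. Every D4M and HCmel12 library lies above every HIM library for Stat2, Irf1 and Bst2, while RET and HCmel12 overlap for Parp12 and Eif2ak2.

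The members were then taken by role, and the shares of all tested genes given above for each comparison are the background for the counts in each group. The receptors and signalling proteins come first in the pathway. Against D4M, 6 of the 9 members were lower in WT31 and 8 in each of the other HIM lines, and 1 was higher in each case. Against HCmel12, 5, 5 and 4 were lower and 4, 2 and 1 were higher, and with 9 members these counts are not set apart from the 33.3 to 36.1% of all tested genes in either direction. The 4 receptor chains and Jak1 were present in all lines, with differences between the lowest and the highest line of 0.78 (Ifnar1), 0.67 (Ifnar2), 1.63 (Ifngr1), 0.59 (Ifngr2) and 1.46 (Jak1) on the log2 scale. Ifnar2, a chain of the type I receptor, was at 54, 49.8, 49, 47.4 and 50.2 CPM in WT31 and at 43.4, 43.8, 46.7, 40.4 and 37.4 CPM in D4M. It was at 32.1, 31, 30.5, 31.9 and 31.8 CPM in RET, the lowest line. All 5 WT31 libraries lay above all others, and WT31 against D4M was 0.25 (SE 0.06, adjusted p = 0.0013). B16F10 luc2 against D4M, at -0.17 (SE 0.07, adjusted p = 0.025), had no stable direction: it lost its call without B16F10 luc2 replicate 5 or D4M replicate 3 (-0.14 each), was -0.01 with scaling by library size alone and 0.02 in TPM, and its adjusted p ran from 0.0037 to 0.87 over the alternatives. Ifngr1, a chain of the interferon gamma receptor, was highest in D4M, at 58.4 ± 3.12 CPM against 18.9 ± 1.26 in B16F10 luc2 and 18.9 ± 0.643 in RET (SD, n = 5). The kinase Jak1 was lowest in HCmel12, at 71 ± 2.45 CPM against 196 ± 7.2 in D4M, and D4M against HCmel12 was 1.46 (SE 0.05, adjusted p = 1.5e-19).

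Irf9 and Irf7 were higher in D4M than in each other line. Irf9, the DNA-binding partner of the STAT proteins, was at 39.7 ± 10.0 CPM in D4M, 12.1 ± 5.66 in HCmel12, 8.8 ± 2.22 in RET, 5.54 ± 1.58 in WT31 and 2.42 ± 0.453 in B16F10 luc2 (SD, n = 5). Irf7 (chr7:141262706-141266481, minus strand) is the factor that amplifies the making of type I interferon. D4M had 37.2, 27.9, 28.6, 58.1 and 40.0 CPM, and WT31, B16F10 luc2 and RET had at most 1.04 CPM in any library. In HCmel12 the values were 0.922, 0.876, 0.567, 5.93 and 0.772 CPM, so that replicate 4 (147 counts) stood alone above the 14 to 23 counts of the others. RET against D4M was -5.39 (SE 0.42, adjusted p = 7.7e-12) and D4M against HCmel12 was 4.96 (SE 0.39, adjusted p = 9.9e-12), the second being 5.55 without HCmel12 replicate 4. WT31 against HCmel12 was -1.67 (SE 0.63, adjusted p = 0.022) and became -1.09 with an adjusted p of 0.094 without that library, in a range from 2.6e-05 to 0.094 over the alternatives.

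Of 8 sensors and effectors of nucleic acid sensing, 7 were lower in each HIM line than in D4M, and 7 were higher in D4M than in HCmel12. Zbp1, 1 of the 7, entered the test only because of D4M and gives no support. Adar, another, was not called for B16F10 luc2 against D4M in log2(TPM + 1), with an adjusted p from 1e-06 to 0.076 over the alternatives. RET stood above HCmel12 for 6 of the 8. Of these, Ddx58 at 0.46 (SE 0.2, adjusted p = 0.043) and Adar at 0.24 (SE 0.1, adjusted p = 0.043) lost the call under several alternatives, with an adjusted p from 2e-05 to 0.13 for Ddx58 and from 0.0029 to 0.17 for Adar. Without HCmel12 replicate 4 they were larger with limma, at 0.67 (adjusted p = 0.003) for Ddx58 and 0.33 (adjusted p = 0.006) for Adar. Samhd1, at 0.26 (SE 0.09, adjusted p = 0.0088), became 0.16 with an adjusted p of 0.079 without the 3 libraries named above, in a range from 0.00087 to 0.079 over the alternatives. Ifi204 (chr1:173747293-173766943, minus strand), a DNA sensor of the PYHIN family, was found mostly in D4M. Its level was 82.7, 86.2, 69, 89.9 and 89.5 CPM in D4M and 0.847, 0.758, 1.16, 1.18 and 1.43 CPM in RET. WT31 had 0 to 2 counts, B16F10 luc2 0 to 4 and HCmel12 1 to 3 counts per library, while D4M had 1551 to 2103. Its log2 fold change in RET against D4M was -6.28 (SE 0.22, adjusted p = 5.4e-19). HCmel12 replicate 4, high for most members, had only 2 counts of Ifi204, and in all 34.6% of the 31-base sequences of its transcripts also occur in other genes. Ifih1, which encodes the RNA sensor MDA5, was at 26.9, 27.2, 28.5, 46.6 and 37.9 CPM in D4M and 11.3, 13, 8.58, 13.9 and 12.7 CPM in RET. B16F10 luc2 had 5.35, 4.55, 4.38, 4.25 and 3.61 CPM and HCmel12 4.13, 5.3, 3.97, 9.28 and 5.22 CPM. WT31 had 0 to 4 counts, the only line without a clear signal.

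Ddx58, which encodes the RNA sensor RIG-I, was instead lowest in B16F10 luc2. Its means were 85.7 ± 19.6 CPM in D4M, 27.1 ± 6.36 in RET, 20.1 ± 7.85 in HCmel12, 10.5 ± 1.3 in WT31 and 3.63 ± 0.577 in B16F10 luc2 (SD, n = 5). B16F10 luc2 against D4M was -4.54 (SE 0.3, adjusted p = 2.5e-13). Adar, an enzyme that edits double-stranded RNA, had a flatter profile, from 25.3 ± 1.82 CPM in WT31 to 64.8 ± 8.19 in D4M. Of its transcript sequences 15.4% are shared with another gene. Samhd1, which degrades deoxynucleotides, was nearly even across the lines. It was at 71.9, 63.9, 71.5, 74.3 and 59.7 CPM in WT31 and 52.4, 49.3, 46.2, 57.5 and 54.4 CPM in D4M. It was highest in WT31, the line that was lowest for many other members, with WT31 against D4M at 0.39 (SE 0.09, adjusted p = 0.00019). For B16F10 luc2 against D4M the value was 0.16 (SE 0.09, adjusted p = 0.094). Its whole range between line means was 0.39 on the log2 scale.

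All 5 oligoadenylate synthases and synthase-like members, whose active enzymes make a messenger of RNA decay, were lower in WT31 and B16F10 luc2 than in D4M and higher in D4M than in HCmel12. In RET 4 were lower than in D4M and 1, Oas1a, did not pass the test. Oas2 and Oas3, which entered the test only because of D4M, give no support to these counts. Oasl2 was at 54.8, 35.4, 42.4, 94 and 79.6 CPM in D4M and 1.26, 1.08, 1.38, 1.32 and 1.5 CPM in RET. In HCmel12 it was 1.36, 1.43, 0.729, 5.69 and 1.75 CPM, with replicate 4 at 141 counts and the others at 18 to 43. WT31 and B16F10 luc2 had at most 8 and 5 counts per library. D4M stood above all other lines without overlap, and D4M against HCmel12 was 5.06 (SE 0.43, adjusted p = 5.1e-11), or 5.49 without HCmel12 replicate 4. Oas1a, whose start region holds a double ISRE match, was at 9.26, 5.83, 3.19, 9.63 and 8.04 CPM in RET and 7.17, 4.07, 6.36, 14.2 and 8.15 CPM in D4M. These 2 lines overlapped, with RET against D4M at -0.14 (SE 0.27, adjusted p = 0.64). In WT31, B16F10 luc2 and HCmel12 its means were 0.015 ± 0.0205, 0.201 ± 0.0844 and 0.214 ± 0.203 CPM. For Oas1a 68.8% of the transcript sequences are shared, nearly all with Oas1g, so that its counts are uncertain. Oas2 had 0 counts in every WT31 library, and with the floor of 3 counts per library its level in D4M, 10.6 ± 6.36 CPM, was at least 90.9-fold higher.

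The IFIT proteins bind viral RNA, and here a single member broke the pattern of the group. Ifit1, Ifit3 and Ifit3b were highest in D4M and second in RET. Ifit1 was at 19.7, 20.1, 22.6, 36.3 and 35.6 CPM in D4M, 18.4, 17, 9.96, 19.9 and 17 CPM in RET and 3.56, 3.31, 1.34, 8.31 and 4.02 CPM in HCmel12. B16F10 luc2 had 1.78 ± 0.332 CPM (SD, n = 5) and WT31 0 to 4 counts per library. RET against HCmel12 was 2.19 (SE 0.32, adjusted p = 1.3e-06), and B16F10 luc2 against RET was -3.18 (SE 0.39, adjusted p = 1.9e-07). Ifit3 and Ifit3b share 61.8% and 55.3% of their transcript sequences with other genes, chiefly with each other, and cannot be separated well. Ifit2 (chr19:34550694-34576419, plus strand) was present at a high level in 4 lines and nearly absent in WT31. It was at 47.8, 53.3, 50.8, 49.7 and 51.7 CPM in B16F10 luc2, 47.5, 48.3, 50.2, 50.2 and 53.9 CPM in RET and 51.9, 46.2, 44.3, 41 and 43.3 CPM in HCmel12. D4M, the top line for the other IFIT genes, had 33.3, 29.8, 29.5, 35.1 and 35.3 CPM and was below these 3 lines in every library. WT31 had 0.152, 0.038, 0.0388, 0.308 and 0.0738 CPM, or 1 to 8 counts per library. WT31 against B16F10 luc2 was -8.83 (SE 0.34, adjusted p = 5.9e-18), and B16F10 luc2 against D4M was 0.64 (SE 0.08, adjusted p = 2.2e-08). RET and B16F10 luc2 differed by 0.02 (SE 0.07, adjusted p = 0.86). B16F10 luc2 against HCmel12 was 0.16 (SE 0.07, adjusted p = 0.045) and lost the call without any 1 of 14 single libraries, with values between 0.12 (without HCmel12 replicate 4) and 0.17 and with an adjusted p between 0.011 and 0.14 over the alternatives.

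In the group of ISG15 and TRIM proteins, all 6 members were lower in WT31 and 5 in B16F10 luc2 than in D4M, and all 6 were lower in both lines than in RET. RET stood above HCmel12 for 5 of the 6. For Herc6 the difference of WT31 and D4M was -1 (SE 0.17, adjusted p = 1e-05) and became -0.19 with an adjusted p of 0.24 in log2(TPM + 1), the highest of a range from 1e-10 to 0.24 over the alternatives. Isg15 (chr4:156199424-156200818, minus strand), a ubiquitin-like protein that is attached to other proteins, was at 23.8, 17.2, 18.9, 41.8 and 37.9 CPM in D4M and 5.89, 5.5, 3.7, 6.04 and 6.6 CPM in RET. HCmel12 had 1.92, 1.51, 1.54, 7.63 and 2.03 CPM, with 189 counts in replicate 4 and 38 to 50 in the others. B16F10 luc2 had 0.674, 0.91, 0.948, 0.782 and 0.73 CPM and WT31 0.567, 0.0759, 0.194, 0.308 and 0.222 CPM. D4M was above all other lines without overlap, and RET was above WT31 and B16F10 luc2 without overlap. D4M against HCmel12 was 3.48 (SE 0.36, adjusted p = 2.1e-09), or 3.91 without HCmel12 replicate 4. B16F10 luc2 against HCmel12 was -1.52 (SE 0.58, adjusted p = 0.022) and became -1.1 with an adjusted p of 0.083 without that library, in a range from 3.3e-05 to 0.083 over the alternatives. Usp18, which removes Isg15 from proteins and dampens the receptor, was likewise highest in D4M and second in RET, with means of 19.1 ± 7.86 CPM in D4M, 3.3 ± 0.843 in RET, 0.887 ± 0.813 in HCmel12, 0.388 ± 0.0904 in B16F10 luc2 and 0.0611 ± 0.0349 in WT31.

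Trim30a and Herc6 went different ways. Trim30a, a TRIM protein of the mouse, was at 21.5, 18.1, 21, 40.5 and 29.5 CPM in D4M and 4.81, 3.86, 3.15, 4.27 and 5.07 CPM in RET. At most 3 counts were found in every library of WT31, B16F10 luc2 and HCmel12, HCmel12 replicate 4 with 2 counts included. The contrast of RET with D4M gave -2.58 (SE 0.22, adjusted p = 3.2e-11). Herc6, named here after its values were seen, is the ligase that attaches Isg15 in the mouse. It was at 44.8, 46, 51.8, 47.6 and 50.6 CPM in RET and 27.4, 30.8, 28.7, 29.3 and 29 CPM in B16F10 luc2. D4M had only 7.64, 6.4, 7.88, 10.6 and 10.8 CPM, HCmel12 12.1, 12.9, 15.4, 13.8 and 14 CPM and WT31 5.98, 5.03, 4.86, 3.74 and 2.55 CPM. RET and B16F10 luc2 each stood above D4M, HCmel12 and WT31 without overlap. RET against D4M was 2.5 (SE 0.12, adjusted p = 6.2e-16), the reverse of the direction of most members, and D4M against HCmel12 was -0.68 (SE 0.14, adjusted p = 1e-04).

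The membrane proteins and the secreted Lgals3bp were lower in all 3 HIM lines than in D4M, all 5 tested members in each comparison, and all 5 were higher in D4M than in HCmel12. The sizes differed widely. Ifitm2, which hinders the entry of viruses, was at 205, 192, 189, 159 and 169 CPM in D4M and 139, 154, 147, 149 and 144 CPM in WT31, with a range of 0.39 between line means on the log2 scale. WT31 against D4M was -0.31 (SE 0.07, adjusted p = 0.00035) and became -0.09 with scaling by library size alone and -0.01 in TPM, with an adjusted p from 5.9e-06 to 0.87 over the alternatives. D4M against HCmel12, at 0.31 (SE 0.07, adjusted p = 0.00043), became 0.13 with an adjusted p of 0.094 with scaling by library size alone, in a range from 3.2e-05 to 0.094 over the alternatives. For Ifitm2 55.5% of the transcript sequences are shared with other genes. Ifitm3 had 319 ± 39.6 CPM in D4M, 103 ± 20 in HCmel12, 80.6 ± 22.1 in WT31, 30.5 ± 9.56 in RET and 10.2 ± 1.61 in B16F10 luc2 (SD, n = 5). B16F10 luc2 against D4M was -4.97 (SE 0.25, adjusted p = 6e-16). Lgals3bp, a secreted galectin-binding glycoprotein, was at 319 ± 42.2 CPM in D4M, 110.0 ± 17.2 in RET and 18.8 ± 3.34 in B16F10 luc2.

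Rtp4 (chr16:23520291-23614222, plus strand) helps receptors to reach the membrane. D4M had 46.5, 27.5, 30.7, 69.8 and 63.8 CPM and RET 4.43, 3.3, 2.56, 4.64 and 4.13 CPM. HCmel12 had 0.922, 1.08, 0.405, 7.99 and 1.63 CPM, and replicate 4 alone held 198 counts where the others held 10 to 40. WT31 had 0 to 1 counts per library and B16F10 luc2 5 to 11. D4M against HCmel12 was 4.97 (SE 0.49, adjusted p = 9.1e-10), or 5.6 without HCmel12 replicate 4. RET against HCmel12, at 1.4 (SE 0.57, adjusted p = 0.034), was not stable: it was 1.34, 1.32 and 1.36 without RET replicates 1, 4 and 5 and 1.25, 1.3 and 0.96 without HCmel12 replicates 1, 2 and 3, each time without a call. Without HCmel12 replicate 4 it was larger, at 2.02 (adjusted p = 0.0048 with limma). With edgeR's quasi-likelihood test on all 25 libraries the value was 0.66. The adjusted p of RET against HCmel12 ran from 0.00079 to 0.32 over the alternatives.

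Of the antiviral effectors, 3 had their highest mean in RET. All 5 were higher in RET than in WT31 and than in B16F10 luc2, 4 were higher in RET than in HCmel12, and 2 were higher and 2 lower in RET than in D4M. Rsad2, an enzyme of iron and sulphur that makes a chain-ending nucleotide and is also named viperin, was at 15, 16, 10.2, 16.3 and 13.8 CPM in RET and 3.72, 4.26, 6.9, 8.79 and 7.99 CPM in D4M. HCmel12 had 3.93, 3.72, 1.66, 11.6 and 5.08 CPM, B16F10 luc2 3.8, 2.27, 2.43, 2.9 and 3.84 CPM and WT31 0.793, 1.64, 1.05, 0.577 and 1.07 CPM. RET stood above WT31, B16F10 luc2 and D4M without overlap, and its lowest library lay below HCmel12 replicate 4. RET against D4M was 1.22 (SE 0.27, adjusted p = 0.00019). D4M against HCmel12 was 0.49 (SE 0.33, adjusted p = 0.19) and became 0.85 with an adjusted p of 0.013 without HCmel12 replicate 4, in a range from 0.013 to 0.66 over the alternatives. Mx1, a GTPase against influenza viruses that was named after its values were seen, was at 2.66, 2.48, 1.84, 2.98 and 2.26 CPM in RET. D4M had 0.413, 0.681, 0.534, 0.949 and 0.213 CPM, and WT31, B16F10 luc2 and HCmel12 had means of 0.415 ± 0.0513, 0.356 ± 0.0997 and 0.442 ± 0.181 CPM. RET lay above all other libraries, with RET against D4M at 2.22 (SE 0.27, adjusted p = 4.2e-08) and D4M against HCmel12 at 0.28 (SE 0.34, adjusted p = 0.47). Mx2 was also highest in RET, at 1.07 ± 0.316 CPM, with RET against D4M at 0.33 (SE 0.43, adjusted p = 0.49).

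Cmpk2, a mitochondrial nucleotide kinase whose gene lies beside Rsad2, was the effector with the least contrast between D4M, HCmel12 and RET. Means were 12.9 ± 3.91, 10.8 ± 3.17 and 9.37 ± 2.09 CPM there and 5.73 ± 0.725 and 1.07 ± 0.361 CPM in WT31 and B16F10 luc2. B16F10 luc2 against D4M was -3.6 (SE 0.34, adjusted p = 3.8e-10). The difference of RET and D4M, one of the 2 lower calls of RET among the effectors, was -0.45 (SE 0.19, adjusted p = 0.034) and was not stable. It lost its call without RET replicate 3 (-0.29), without D4M replicate 4 (-0.32), without D4M replicate 5 (-0.39), without the 3 libraries named above (-0.16), with scaling by library size alone (-0.25), with no filter (-0.44), in log2(TPM + 1) (-0.34) and in fits of 2 lines only (-0.46), and its adjusted p ran from 0.015 to 0.3 over the alternatives. Xaf1, which promotes cell death, had 14.8 ± 3.85 CPM in D4M, 4.07 ± 1.05 in RET, 2.26 ± 1.64 in HCmel12, 1.46 ± 0.343 in WT31 and 1.34 ± 0.577 in B16F10 luc2. RET against D4M was -1.86 (SE 0.24, adjusted p = 8e-08) for Xaf1.

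The PARP family and its partner Dtx3l, a ubiquitin ligase bound to Parp9, were lower in the HIM lines than in D4M. All 4 members were lower in each HIM line than in D4M and in WT31 and B16F10 luc2 than in HCmel12, and all 4 were lower in WT31 than in B16F10 luc2 and RET. WT31 against B16F10 luc2 was not called for Parp14 in log2(TPM + 1), at -0.22 with an adjusted p of 0.14, in a range from 1.7e-08 to 0.14 over the alternatives. Parp14, an ADP-ribosyltransferase, was at 14.1, 12.3, 10.1, 24 and 23.4 CPM in D4M and 4.33, 4.07, 2.63, 6.62 and 3.79 CPM in HCmel12. RET had 2.8, 2.82, 1.38, 2.72 and 2.16 CPM, B16F10 luc2 1.03, 1.24, 1.24, 1.4 and 0.73 CPM and WT31 0.607, 0.19, 0.0388, 0.192 and 0.0 CPM. D4M was above all other lines without overlap, and D4M against HCmel12 was 1.94 (SE 0.28, adjusted p = 8.6e-07). WT31 against HCmel12 was -5.06 (SE 0.71, adjusted p = 6e-07). Parp9 and Dtx3l were also highest in D4M and lowest in WT31, with means of 30.9 ± 8.29 and 19.3 ± 3.95 CPM in D4M against 2.82 ± 0.302 and 1.33 ± 0.264 CPM in WT31.

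The GTPases of the GBP and IRG families act on the compartments in which parasites and bacteria live. All 6 were lower in WT31 and B16F10 luc2 than in D4M, 5 were lower in RET than in D4M, and 1, Gbp2, did not pass the test there. Iigp1, which entered the test only because of D4M, gives no support to these counts. Igtp was at 13.3, 11.7, 9.84, 18.9 and 17.7 CPM in D4M, 1.42, 1.3, 0.551, 1.28 and 1.33 CPM in RET and 0.481, 1.05, 0.608, 3.35 and 0.972 CPM in HCmel12. B16F10 luc2 had at most 3 counts per library and WT31 2 to 10. Its log2 fold change in RET against D4M was -3.61 (SE 0.34, adjusted p = 2.6e-10). Irgm1, the member of the group with the highest TPM, was at 74.1, 55.1, 57.4, 106 and 92.4 CPM in D4M, 39.3, 33.7, 34.1, 43.3 and 38.7 CPM in RET and 25.9, 31.4, 23.7, 22.7 and 24.4 CPM in WT31. B16F10 luc2 had 7.38, 8.73, 8.57, 7.76 and 7.32 CPM and HCmel12 a mean of 25.4 ± 6.76 CPM. B16F10 luc2 lay below every other library, with WT31 against B16F10 luc2 at 1.68 (SE 0.22, adjusted p = 1.9e-07). WT31 against HCmel12 was 0.04 (SE 0.17, adjusted p = 0.85). Gbp2, named after its values were seen, was highest in HCmel12 at 6.66, 10.4, 10.2, 8.8 and 9.92 CPM and was at 7.11, 6.5, 7.95, 7.04 and 6.87 CPM in RET and 5.24, 5.68, 3.92, 8.66 and 7.41 CPM in D4M. D4M against HCmel12 was -0.6 (SE 0.22, adjusted p = 0.017) for Gbp2 and was -0.44 with an adjusted p of 0.077 without D4M replicate 3, the highest of a range from 0.0023 to 0.077 over the alternatives. Gbp3 and Gbp7 kept D4M at the top, with means of 15.2 ± 6.7 and 12.9 ± 3.85 CPM. Iigp1 was read at up to 3 counts per library in WT31, B16F10 luc2 and RET and at 13 ± 5.57 CPM in D4M.

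All 4 remaining members were lower in each HIM line than in D4M and higher in D4M than in HCmel12, of which Ifi44, which entered the test only because of D4M, gives no support. Sp100 (chr1:85649988-85709998, plus strand), a component of nuclear bodies, was at 65.2, 49.4, 67.3, 98.4 and 69.1 CPM in D4M and 1.86, 2.04, 1.53, 2.72 and 1.97 CPM in RET. It had 0 to 2 counts per library in WT31 and 0 to 8 in HCmel12, where replicate 4 held the 8, against 1113 to 2216 in D4M. The contrast of RET with D4M gave -5.09 (SE 0.29, adjusted p = 1.3e-14). Ifi27, a small mitochondrial protein, had the highest TPM of the 4 in D4M and was at 110.0, 90.2, 99.1, 113 and 97.1 CPM in D4M and 53.1, 34.2, 20.8, 52.1 and 46.8 CPM in RET. HCmel12 had 16, 17, 14, 44.3 and 21 CPM, with replicate 4 apart from the other libraries, and WT31 had 24, 17, 18.3, 17.6 and 16.3 CPM. D4M against HCmel12 was 2.31 (SE 0.22, adjusted p = 6.6e-10) and WT31 against HCmel12 was -0.15 (SE 0.26, adjusted p = 0.63). Ifi44 had at most 5 counts per library in WT31, B16F10 luc2 and RET and 24.3 ± 12.4 CPM in D4M. Ifi35 was spread more evenly, from 3.9 ± 0.787 CPM in B16F10 luc2 to 25 ± 5.23 CPM in D4M.

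**Figure D5:**
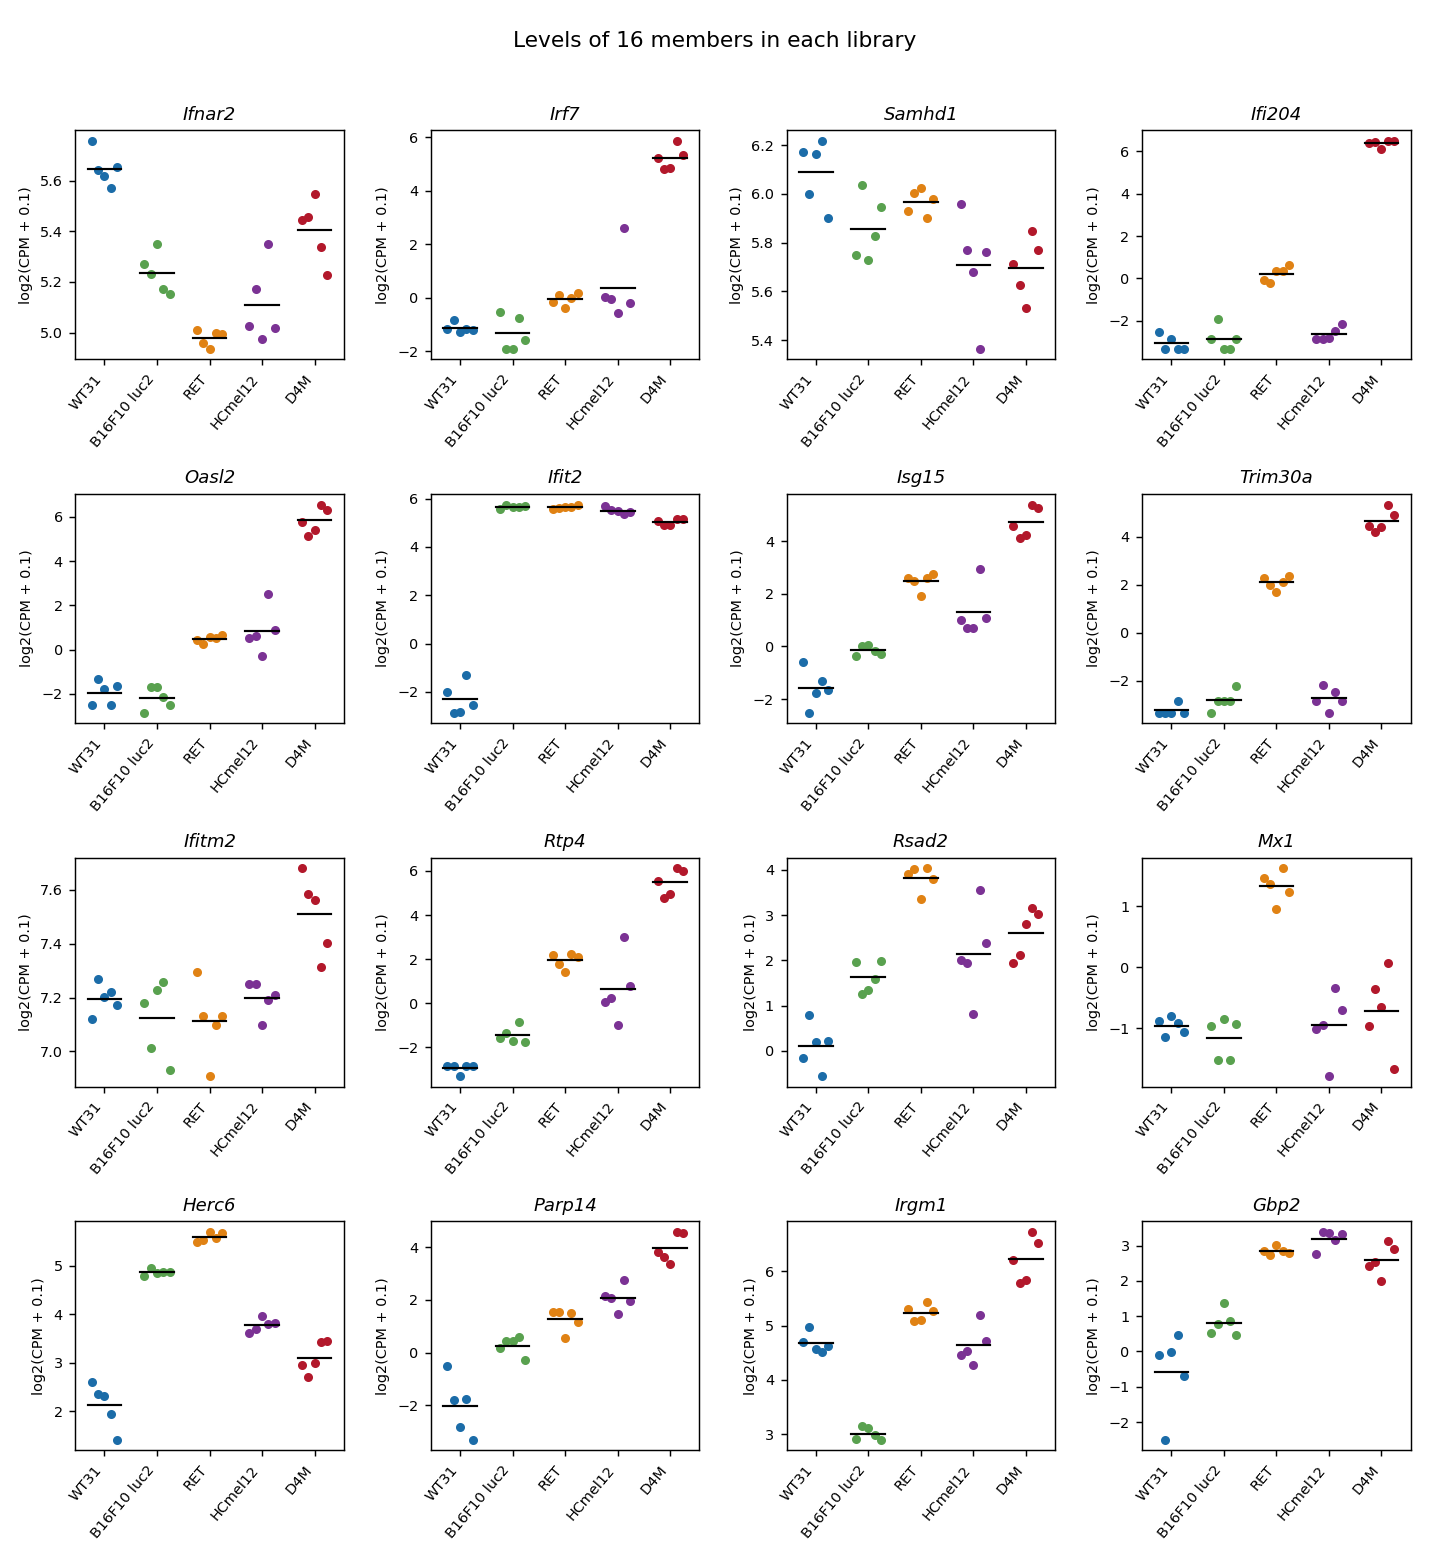
Level of 16 members in each of the 25 libraries as log2(CPM + 0.1), by line. Ifi204, Oasl2, Rtp4 and Trim30a are high in D4M, Ifit2 is near the floor only in WT31, Herc6, Rsad2 and Mx1 are highest in RET, and HCmel12 replicate 4 stands above its line for Irf7, Oasl2, Isg15 and Rtp4.

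On a scale that allows genes to be compared, TPM over 24 libraries, the median member was at 15.5 TPM in D4M, 5.45 in RET, 3.21 in HCmel12, 1.07 in B16F10 luc2 and 0.523 in WT31. At least 1 TPM was reached by 54 members in D4M, 44 in RET, 39 in HCmel12, 31 in B16F10 luc2 and 26 in WT31. The summed level of all members was 3140 TPM in D4M and between 828 and 1300 TPM in the other lines. A few genes made up much of these sums. Ifitm2 was the most abundant member in WT31 (490 TPM), B16F10 luc2 (427), RET (424) and HCmel12 (436), and Ifitm3 in D4M (815 TPM).

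Further genes of the pathway were read from a list of 50, of which 49 were in the files and 40 were tested. Of the 40, WT31 was lower than D4M for 27 (38.6% of all tested genes), B16F10 luc2 for 30 (38.9%) and RET for 30 (38.3%), and the same lines were higher for 8, 6 and 9 (37.5, 38.8 and 38.8%). Against HCmel12, 17, 16 and 13 were lower (34.3, 33.8 and 33.3% of all tested genes) and 11, 13 and 14 higher (36.1, 35.3 and 34.0%). D4M was higher than HCmel12 for 31 (36.8%) and lower for 6 (35.7%). Ifi203, Ifi205, Slfn2, Ifi27l2a and Gbp4 passed the filter (0.404 CPM in 5 libraries) only because of D4M, so that they had to differ there. They give no support to the counts of this list in which D4M was the higher line. Socs1, which blocks Janus kinases, was at 15.8 ± 3.1 CPM in D4M and at 1.34 ± 0.265 in WT31 (SD, n = 5), with a log2 fold change of WT31 against D4M of -3.55 (SE 0.19, adjusted p = 3.8e-15). Nlrc5, a regulator of antigen presentation genes, was at 19.1 ± 2.68 CPM in D4M, 5.93 ± 0.771 in HCmel12 and 0.653 ± 0.13 in RET. The kinases, sensors and adaptors upstream went different ways in WT31 against D4M. No call was made for Tyk2 at 0.01 (SE 0.08, adjusted p = 0.95), Jak2 at -0.02 (SE 0.07, adjusted p = 0.81), Irf3 at -0.13 (SE 0.09, adjusted p = 0.18) and Mavs at -0.02 (SE 0.06, adjusted p = 0.82). Tmem173, which encodes the adaptor STING, was lower at -1.02 (SE 0.11, adjusted p = 6.8e-09), and so was Traf3 at -0.54 (SE 0.06, adjusted p = 3e-08). Ikbke at 1.02 (SE 0.16, adjusted p = 1.9e-06), Tlr3 at 0.91 (SE 0.1, adjusted p = 6.7e-09) and Tbk1 at 0.3 (SE 0.06, adjusted p = 2e-04) were higher. Cxcl10, a chemokine that attracts T cells, went the other way. It was at 43.7 ± 6.22 CPM in RET, 42 ± 11.1 in HCmel12, 16.6 ± 5.32 in WT31, 6.3 ± 1.23 in D4M and 4.36 ± 1.4 in B16F10 luc2, with D4M against HCmel12 at -2.7 (SE 0.28, adjusted p = 2e-09).

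The 8 interferon genes on the list (Ifna2, Ifna4, Ifnb1, Ifne, Ifng, Ifnk, Ifnl2, Ifnl3) had at most 1 count in any of the 25 libraries, and none was tested. Other interferon genes were not read. Levels under 3 counts in a library were not detectable at this depth.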

How the data were processed

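RNA was sequenced from 25 libraries of 5 melanoma lines. Per the study's methods and the submitters' processing notes, reads were trimmed with Trim Galore 0.6.4 and quantified with kallisto (0.4.6 in the processing notes, whose version differs from that in the methods) against GRCm38.p6. The authors deposited estimated counts per gene, which need not be whole, and TPM, which correct for transcript length. The annotation release and the step from transcripts to genes are not given in the sources used here. Reads that fit several near-identical genes are shared out by kallisto, which makes the counts of such members uncertain.

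Estimated counts were used as deposited for limma and rounded to whole numbers for edgeR's quasi-likelihood test and DESeq2. Genes were filtered with edgeR 4.0.16 (filterByExpr, with the line as group), scaled with TMM factors and tested with limma 3.58.1 on voom values in R 4.3.3. All 25 libraries entered 1 fit with 1 mean per line, and p-values were adjusted by Benjamini-Hochberg over the 15247 tested genes of each comparison, with 0.05 as threshold. The procedure was tested on simulated data, but the outcome is not reported here and no result rests on it. Alternatives used DESeq2 1.42.0 among other settings. The members, role groups, pathway genes and markers were chosen with earlier results of these data known. Named were the commonly regulated members, in each role group the member with the highest TPM and the one with the largest difference between line means, and members with at most 3 counts in every library, and others are said to be named after their values were seen or appear as values only. Columns of TPM of D4M replicate 1 were not used. Shared sequences were counted as runs of 31 bases in GENCODE vM21 transcripts.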

Additional observations from a re-analysis of the deposited data

Results flagged for a closer look

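Single libraries were far from the other libraries of their line for 17 of 166 combinations of a named gene and a line, by Dixon's criterion at the 95% level, which chance alone passes in about 1 of 20. HCmel12 replicate 4 accounted for 9 of them. There, Irf7 was at 5.93 CPM (0.567 to 0.922 in the other libraries), Oasl2 at 5.69 (0.729 to 1.75), Isg15 at 7.63 (1.51 to 2.03) and Rtp4 at 7.99 (0.405 to 1.63). Xaf1 was at 5.09 CPM (1.09 to 2.2), Igtp at 3.35 (0.481 to 1.05) and Ifi27 at 44.3 (14 to 21). The RNA sensors Ddx58 and Ifih1 were at 34 CPM (14.5 to 18) and 9.28 CPM (3.97 to 5.3) in the same library. RET replicate 3 was low for Trim25, at 10.6 CPM against 16.4 to 18.4, and for Igtp, at 0.551 CPM against 1.28 to 1.42.

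Other libraries stood apart for single genes. In WT31, Irf7 was at 0.455 CPM in replicate 2 (0.31 to 0.346 in the others), Xaf1 at 2.07 CPM in replicate 5 (1.23 to 1.4), and Ifi27 and Cmpk2 at 24 CPM (16.3 to 18.3) and 6.98 CPM (5.16 to 5.65) in replicate 1. In B16F10 luc2, Adar was at 54.7 CPM in replicate 1 (42.7 to 46.1) and Ifi204 at 0.166 CPM in replicate 2 (0 to 0.0397), the latter from a handful of counts.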

How the results depend on the processing

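The count of commonly regulated members was 8 with DESeq2's size factors, edgeR's quasi-likelihood test, DESeq2's Wald test, fits of 2 lines only and a filter of at least 10 counts in every library. WT31 was below each other line for 19 members with edgeR, 20 with DESeq2 and 12 in log2(TPM + 1), and D4M above each for 39 with library size alone and 38 in log2(TPM + 1). Against HCmel12, edgeR and DESeq2 called 46 and 48 members in WT31 and 40 each in B16F10 luc2. Such totals join both directions. In the main fit 36.1% of all tested genes were higher and 34.3% lower in WT31, and 35.3% and 33.8% in B16F10 luc2. For the counts in this section, the share of all tested genes under the same setting was not determined. They show only how the counts moved. The filter of at least 10 counts left 10497 genes and 29 members to test, and 28 members were called against D4M in each HIM line, 24, 19 and 21 in the same lines against HCmel12, 23 in WT31 against B16F10 luc2, 23 in WT31 against RET, 22 in B16F10 luc2 against RET and 26 in D4M against HCmel12. D4M was then above each other line for 21 and WT31 below each for 7. Where the log2 fold change also had to be 1 or more in size, the count was 26 for WT31 and 22 for RET against HCmel12, 22 for WT31 against B16F10 luc2 and 0 for the commonly regulated members. Without 1 library, the counts were 53 to 54, 53 to 55 and 51 to 52 for WT31, B16F10 luc2 and RET against D4M, 39 to 44, 31 to 35 and 30 to 37 for the same lines against HCmel12, 32 to 36 for WT31 against B16F10 luc2, 45 to 47 for WT31 against RET, 41 to 44 for B16F10 luc2 against RET and 49 to 54 for D4M against HCmel12. Commonly regulated were 5 to 9, D4M was above each other line for 40 to 44 and WT31 below each for 14 to 18. Ifnar2 in B16F10 luc2 against D4M turned from -0.17 to 0.02 with log2(TPM + 1), and the cause was not tested. Of 350 values of named genes, edgeR's quasi-likelihood test left 339 on their side of the threshold and DESeq2's Wald test 332.

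Over all tested genes the replicate numbers did not pair the libraries: the correlations of same-numbered libraries ran from -0.23 to 0.21, with a median of -0.01. Over the members, the median deviation in replicate 4 was 0.6 (D4M), 0.76 (HCmel12), 0.21 (RET), -0.05 (WT31) and -0.02 (B16F10 luc2). In replicate 3 it was -0.23, -0.45, -0.44, -0.08 and 0.21, in the same order. Whether the members share an effect of the replicate number was not tested. In a blocked fit (replicate number as the block), 53, 54 and 52 members were called in WT31, B16F10 luc2 and RET against D4M, 49, 39 and 38 against HCmel12, 40, 48 and 46 between the HIM lines and 51 in D4M against HCmel12, 8 were commonly regulated and WT31 was below each other line for 22. The block ended 1 named call (Ifit2, B16F10 luc2 against HCmel12, adjusted p = 0.08 with limma, in a range from 0.011 to 0.14 over the alternatives) and added 14.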
